A study of Mus musculus with 12 samples.

Results

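The extracellular matrix of the mouse ventricle was followed through 55 genes that encode collagen chains, laminin chains, matrix metalloproteinases (MMPs), tissue inhibitors of metalloproteinases (TIMPs), ADAMTS proteases and lysyl oxidases. They were taken by gene name and mean level. Of the 33641 genes listed, 106 carried a name of these families, and 55 averaged 0.5 TPM or more across the 12 samples and were kept. TPM is the level of a gene's transcripts per length, scaled so that all genes of a sample sum to 1000000. Just inside the limit were Lox at 0.507, Col22a1 at 0.517 and Mmp9 at 0.524 TPM, and just outside were Col26a1 at 0.435, Col11a2 at 0.431 and Col4a3 at 0.420 TPM. Of the 51 names left out, 4 were listed at 0 in all 12 samples and 1 exceeded 1 TPM in any sample.

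The study placed the human coding sequence of phospholamban (PLN), the inhibitor of the calcium pump SERCA2a, at the start codon of the mouse gene, either as WT-PLN or with arginine 14 deleted (R14del-PLN). RNA was sequenced from the whole left ventricle (LV) and right ventricle (RV) of both genotypes, with 3 samples in each of the 4 groups. The labels give the strain of every group as C57BL/6J and the age as 12 to 14 weeks. The study's methods describe male mice, R14del-PLN in the heterozygous state, and lines set up from chimeras of 129/Sv-CP and C57Bl/6J origin crossed to Sox2-Cre mice, so that WT-PLN hearts carry a humanized allele as well and no group is an unmodified mouse. Mutant samples are titled with the letters KO, although the R14del-PLN gene is altered and not removed. The labels do not say whether samples of one group came from separate mice, so that p-values measure the spread between these samples only.

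Fibrillar collagens form the load-bearing fibres between cardiac muscle cells, and lysyl oxidases cross-link them. Laminins and type IV collagen build the basement membrane around each muscle cell and capillary, and MMPs and ADAMTS enzymes cut these proteins while TIMPs inhibit the enzymes. In the heart, fibroblasts are known as the main source of fibrillar collagen, and an excess of it is the hallmark of fibrosis.

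Some libraries stood apart. The summed level of 4 Y-linked genes was 0.250 and 0.284 TPM in both WT-PLN samples numbered 1, against 43.5 to 63.7 TPM in the other 10 samples, although the methods describe male mice. Results are therefore also given without both of these samples. One R14del-PLN sample of the RV (replicate 3) has another sequencing run number in the name of its deposited table than the other 11. The 10 cardiomyocyte markers summed to 35460 to 54692 TPM across the 12 samples. TPM holds no record of depth, and the number of genes above 0 ranged from 17924 to 18879. Mitochondrially encoded genes took 372928 to 545449 of the 1000000 TPM of a sample, and every other gene shares what remains. Replicate 3 was the highest of its group for 48 of 55 members in WT-PLN LV and for 51 of 55 in R14del-PLN LV, against 73.5% and 86.7% of all genes tested.

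The summed level of the 55 members was 641 ± 127 TPM (SD, n = 3) in WT-PLN LV, 510 ± 116 TPM in R14del-PLN LV, 535 ± 76.8 TPM in WT-PLN RV and 482 ± 81.3 TPM in R14del-PLN RV. The ranges of the 3 samples overlapped between genotypes in both ventricles, with 524 to 776 TPM against 406 to 635 TPM in the LV and 468 to 619 TPM against 416 to 573 TPM in the RV. Laminins made up 29.1% of the sum over all samples, TIMPs 22.9%, basement membrane collagens 16.6%, fibrillar collagens 9.84%, MMPs 8.94% and network and beaded collagens 5.92%. ADAMTS proteases, lysyl oxidases, fibril-associated collagens and the membrane collagen held the rest, with 4.23%, 1.52%, 0.865% and 0.115%. The 5 most abundant transcripts (Timp3, Lamb2, Col4a1, Timp2 and Col4a2) held 45.8%, and 17 of the 55 members were below 2 TPM. In these bulk samples, fewer cells of a type and less RNA per cell cannot be told apart.

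**Figure D1:**
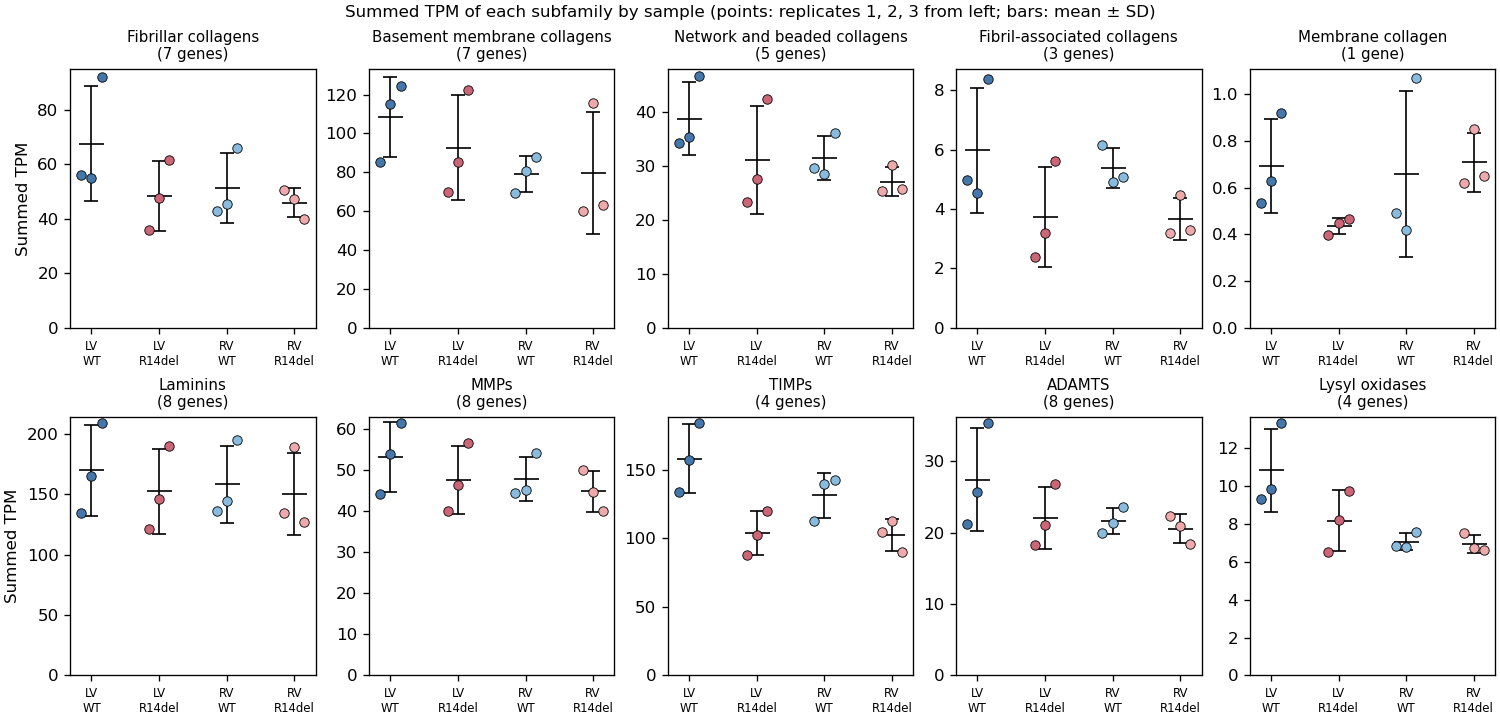
Summed TPM of each subfamily (vertical axis, from 0) in the 4 groups; points are samples with replicates 1, 2 and 3 from the left, and bars are the mean ± SD. TIMPs lie between 88.1 and 120 TPM in R14del-PLN LV and between 134 and 184 TPM in WT-PLN LV, while the other sums in the LV overlap between genotypes except that of the single membrane collagen. Of the TIMPs, only Timp3 did not overlap between genotypes in the LV when taken by gene.

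Each ventricle was compared between genotypes, each genotype between ventricles, and the genotype effect between ventricles as an interaction, with limma on log2(TPM + 1) over 12526 genes. Every fold change below is on this scale, which understates the change of genes near or below 1 TPM. A gene was called where the adjusted p did not exceed 0.05 and the fold reached 1.5. None of the 55 members was called in the LV, where 0.519% of all genes were called, and none was called in the RV, where 0.271% were. Between the RV and LV, and for the interaction, limma called 0 members and 0% of all genes.

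Without adjustment, 12 members had p under 0.05 in the LV, 1 with a positive and 11 with a negative difference, where 1.76% and 7.85% of all genes tested did so (9.60% in either direction). In the RV there were 4 such members, 1 positive and 3 negative, against 2.82% and 3.40% of all genes. Between ventricles there were 8 in WT-PLN hearts, all lower in the RV, as were 13.8% of all genes at that p while 0.655% were higher. In R14del-PLN hearts there were 2, 1 higher and 1 lower in the RV, against 0.503% and 6.07% of all genes (6.57% in either direction). For the interaction there was 1, with a positive value, as had 0.766% of all genes (1.01% in either direction). The number of members with such a p depended on single samples and on the scaling. In the LV it came to 20 without WT-PLN replicate 1 of the LV, to 20 without R14del-PLN replicate 3 of the LV and to 19 without both WT-PLN samples numbered 1, where 14.6%, 18.7% and 13.9% of all genes had such a p. It fell to 8 without R14del-PLN replicate 1 or 2 of the LV, against 6.44% and 6.32%. Without WT-PLN replicate 3 of the LV it was 9, against 6.11%, and with a filter at a mean of 1 TPM it was 8, against 9.47%. In the RV it came to 10 after quantile normalization, against 12.8% of all genes, to 7 without mitochondrially encoded genes, against 10.9%, and to 2 without WT-PLN replicate 3 of the RV, against 5.69%. Between the ventricles of WT-PLN hearts it came to 14 without replicate 1 of the LV, against 20.4%, and to 4 without replicate 3 of the LV, against 6.00%. Between those of R14del-PLN hearts it came to 6 without replicate 1 of the LV, against 8.26%, and to 5 without replicate 2 of the RV, against 6.51%. It was 1 in R14del-PLN hearts without replicate 2 or 3 of the LV, replicate 3 of the RV, or WT-PLN replicate 2 of the LV or the RV. For the interaction it came to 4 without R14del-PLN replicate 3 of the LV, against 3.39%, and to 2 without WT-PLN replicate 1 of the LV or replicate 3 of the RV.

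The members' differences in the LV lay on one side. R14del-PLN hearts had a negative log2 difference for 47 of 55 members, against 71.7% of all genes, with a median of -0.23 against -0.09 over all genes. In the RV, 41 of 55 were negative and 14 positive, against 50.9% and 49.0% of all genes, with a median of -0.05 against -0.0034. The median of the members relative to that of all genes was -0.15 in the LV and -0.05 in the RV, and -0.15 and -0.07 after quantile normalization, which itself moved the median of all genes in the LV from -0.09 to 0.01. Single samples moved these medians. The members' LV median was -0.10 without WT-PLN replicate 3 of the LV and -0.11 without R14del-PLN replicate 1 of the LV, with -0.02 over all genes in each case. It was -0.37 without R14del-PLN replicate 3 of the LV and -0.33 without WT-PLN replicate 1 of the LV, with -0.19 and -0.15 over all genes. The RV median was -0.0063 without WT-PLN replicate 3 and -0.0086 without R14del-PLN replicate 3 of the RV, with 29 and 28 members below 0, and all genes were at 0.05 and 0.04. It was -0.14 without WT-PLN replicate 1 and -0.14 without R14del-PLN replicate 2 of the RV, and -0.09 without WT-PLN replicate 2 or R14del-PLN replicate 1 of the RV.

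The interaction, the RV minus the LV genotype difference, was above 0 for 48 members and below 0 for 7, against 74.3% and 25.7% of all genes, with a median of 0.12. The number below 0 was 26 below 0 without WT-PLN replicate 3 of the LV (median 0.01), 23 without R14del-PLN replicate 1 of the LV (median 0.02) and 17 without R14del-PLN replicate 2 of the RV, and 20 after quantile normalization, where 52.0% of all genes lay below 0. Without WT-PLN replicate 1 of the RV, WT-PLN replicate 2 of the RV or R14del-PLN replicate 1 of the RV it was 12, 11 and 12. It was 2 without WT-PLN replicate 1 or R14del-PLN replicate 3 of the LV and 3 without WT-PLN replicate 3 of the RV. The LV genotype difference, the ventricle difference of WT-PLN hearts and the interaction all use the same WT-PLN LV samples. Their counts are therefore not independent of each other. Genes are not independent replicates, and no test was made over the members.

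**Figure D2:**
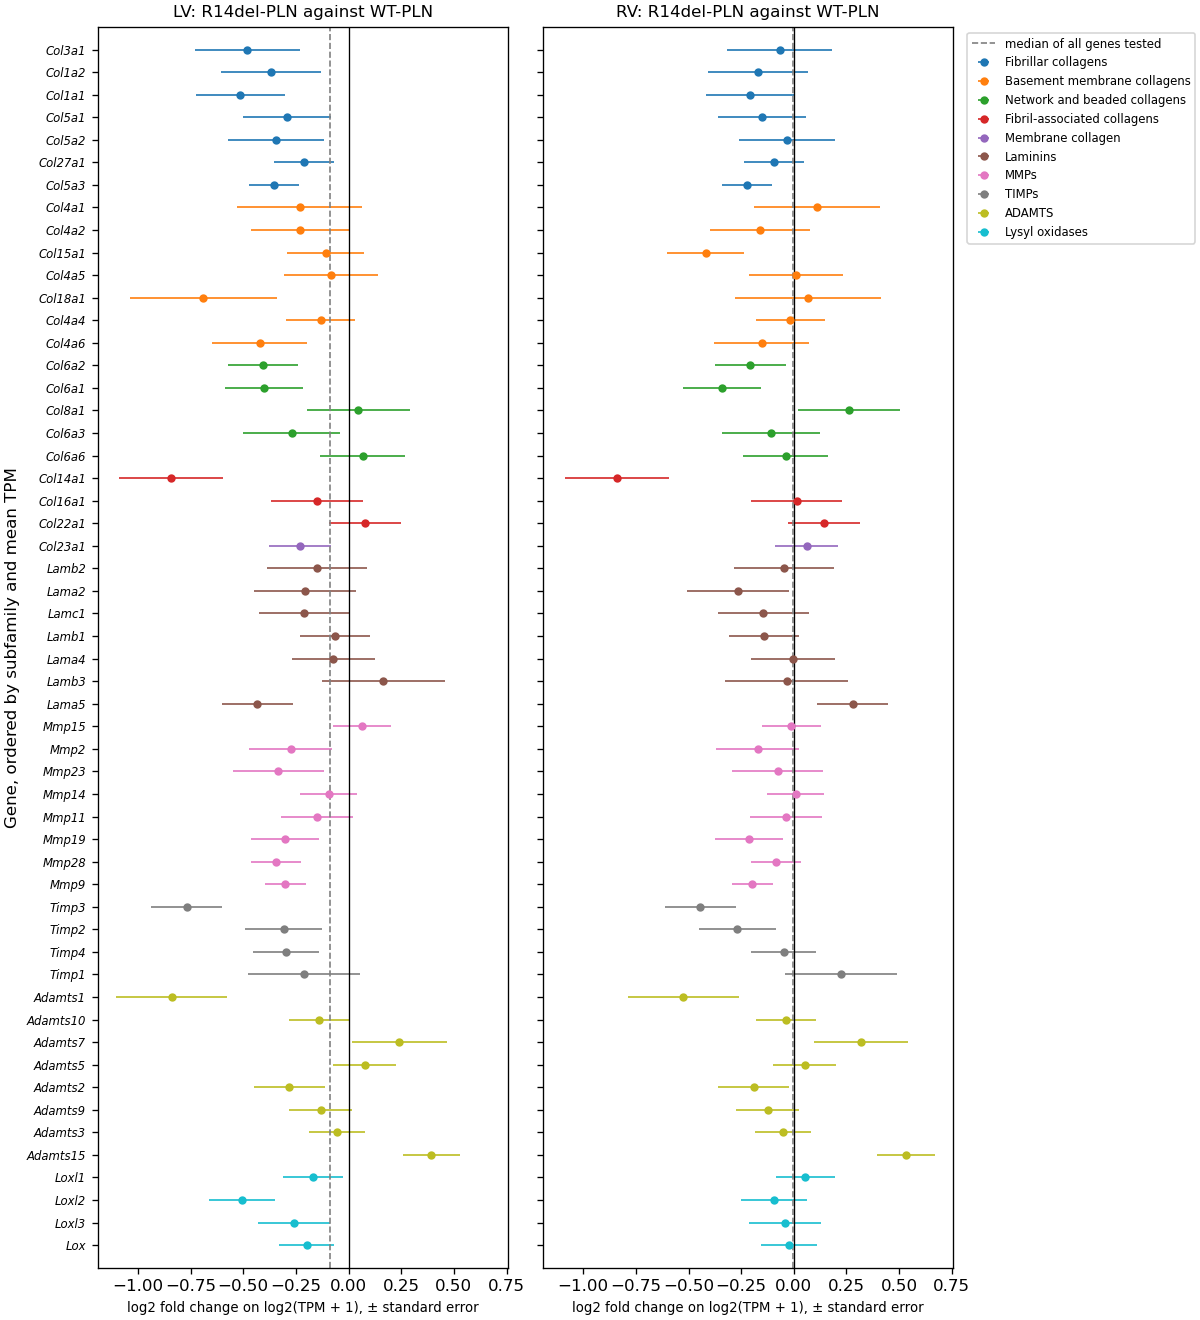
Log2 fold change of each of 54 of the 55 members (vertical axis, ordered by subfamily and mean TPM) between R14del-PLN and WT-PLN hearts on log2(TPM + 1), ± standard error, in the LV (left) and RV (right); the dashed line is the median of all genes tested. In the LV 46 of 54 points lie below 0, with Timp3, Col14a1 and Adamts1 farthest, and Adamts15 lies above 0 in both ventricles.

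The 4 TIMPs summed to 158 ± 25.1 TPM in WT-PLN LV and 104 ± 16.0 TPM in R14del-PLN LV (SD, n = 3) without overlap. Each had a negative LV difference, as had 71.7% of all genes. By gene, only Timp3 lay lower without overlap in the LV, as did 8.47% of all genes, while Timp1, Timp2 and Timp4 overlapped. Timp3, an inhibitor bound to the matrix that also blocks ADAM and ADAMTS enzymes, had the highest mean over the 12 samples of all 55 members. It stood at 86.5, 106 and 121 TPM in WT-PLN LV (104 ± 17.3, SD, n = 3) and at 53.7, 60.1 and 68.1 TPM in R14del-PLN LV (60.6 ± 7.21), a ratio of means of 0.580. In the RV it stood at 69.6, 94.0 and 93.2 TPM in WT-PLN and 60.7, 73.4 and 53.6 TPM in R14del-PLN samples. The LV groups did not overlap, while in the RV the highest R14del-PLN sample exceeded the lowest WT-PLN sample.

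The log2 difference of Timp3 was -0.77 ± 0.17 (SE) in the LV (limma, p = 0.000515, adjusted p = 0.0725; exact permutation test, p = 0.1, the smallest that 3 against 3 samples allow), and so was not called. It was -0.44 ± 0.17 in the RV (limma, adjusted p = 0.615). The study reported lower Timp3 in both ventricles at the same limits of adjusted p and fold, from its own test in CLC Genomics Workbench. The LV difference was called in 6 of 22 alternatives, with an adjusted p of 0.0231 after quantile normalization, 0.0226 without mitochondrially encoded genes, 0.0363 without WT-PLN replicate 1 of the LV, 0.0473 without R14del-PLN replicate 2 of the RV and 0.0208 without both WT-PLN samples numbered 1. The sixth was the fit with the replicate number as a block, with an adjusted p of 0.0293, although the numbers pair no samples between genotypes. Over all 22 the adjusted p ran from 0.0208 to 0.302 and the difference from -0.90 to -0.66.

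Timp3 lies on chromosome 10 of GRCm38 from 86300372 to 86349506 on the plus strand and shares exon sequence with Syn3 on the other strand, which had a mean of 0.328 TPM. It is shown with Adamts1 because both were called under some settings, and because the windows before their starts can be read side by side. The sequences are from RefSeq (GRCm38.p6), whose table held 37 of the 55 members, and run 5′ to 3′ up to the start. Capitals mark matches on either strand to GGGCGG, the GC box, or TATAAA, the TATA box.
Timp3, chr10:86300162-86300371, plus strand: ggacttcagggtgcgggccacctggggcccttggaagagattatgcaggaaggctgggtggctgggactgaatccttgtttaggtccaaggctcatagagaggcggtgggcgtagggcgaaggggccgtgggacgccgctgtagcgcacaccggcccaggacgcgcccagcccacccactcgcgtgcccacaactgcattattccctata
Adamts1, chr16:85803114-85803363, minus strand: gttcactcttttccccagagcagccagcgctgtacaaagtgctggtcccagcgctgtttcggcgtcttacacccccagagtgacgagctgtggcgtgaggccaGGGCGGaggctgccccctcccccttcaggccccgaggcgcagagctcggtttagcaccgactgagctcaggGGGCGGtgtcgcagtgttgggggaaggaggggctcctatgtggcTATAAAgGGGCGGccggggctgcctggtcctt
The last 40 of the 250 bases before the RefSeq start of Timp3 lie past the start in GENCODE and are not shown, and they hold its only match, to GGGCGG. The Adamts1 window holds 3 matches to GGGCGG and 1 to TATAAA, and neither window holds the CCAAT box, the AP-1 motif TGANTCA or the E-box motif CACGTG. Over 32851 promoters of 250 bases, 40 more than the Timp3 window shown, 32.7% held the GC box, 12.4% the TATA box, 33.8% the CCAAT box, 6.75% the AP-1 motif and 6.02% the E-box motif, counted on both strands.

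Timp2, which takes part in the activation of pro-MMP-2 as well as inhibiting MMPs, stood at 28.0, 32.3 and 44.7 TPM in WT-PLN LV and at 22.4, 28.2 and 33.1 TPM in R14del-PLN LV, and these groups overlapped. In the RV it was at 34.3 ± 3.98 TPM in WT-PLN and 28.3 ± 3.64 TPM in R14del-PLN hearts (SD, n = 3), and the difference of -0.27 ± 0.18 (SE) was not called (limma, adjusted p = 0.997).

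Timp4, the inhibitor best known from heart muscle, had its lowest adjusted p between the ventricles of WT-PLN hearts. In WT-PLN hearts it was at 17.6, 17.5 and 14.6 TPM in the LV and at 11.8, 10.8 and 9.85 TPM in the RV, with no overlap and a log2 difference of -0.57 ± 0.15 (limma, adjusted p = 0.217). In R14del-PLN hearts it was at 10.9, 12.4 and 17.1 TPM in the LV and at 9.56, 10.6 and 11.1 TPM in the RV, where the groups overlapped slightly and the difference was -0.32 ± 0.15 (limma, adjusted p = 0.775). Timp4 shares exon sequence with Syn2 on the other strand, which had a mean of 1.18 TPM. Timp1, the inhibitor known to be induced in injured heart, was the scarcest of the 4. In WT-PLN LV replicate 3 was at 3.68 TPM, with the others at 1.48 and 1.51 TPM, and WT-PLN RV lay at 0.742, 0.863 and 0.916 TPM. In R14del-PLN hearts it was at 1.11, 2.15 and 1.83 TPM in the LV and at 2.13, 0.938 and 0.631 TPM in the RV, where replicate 1 reached the LV level.

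**Figure D3:**
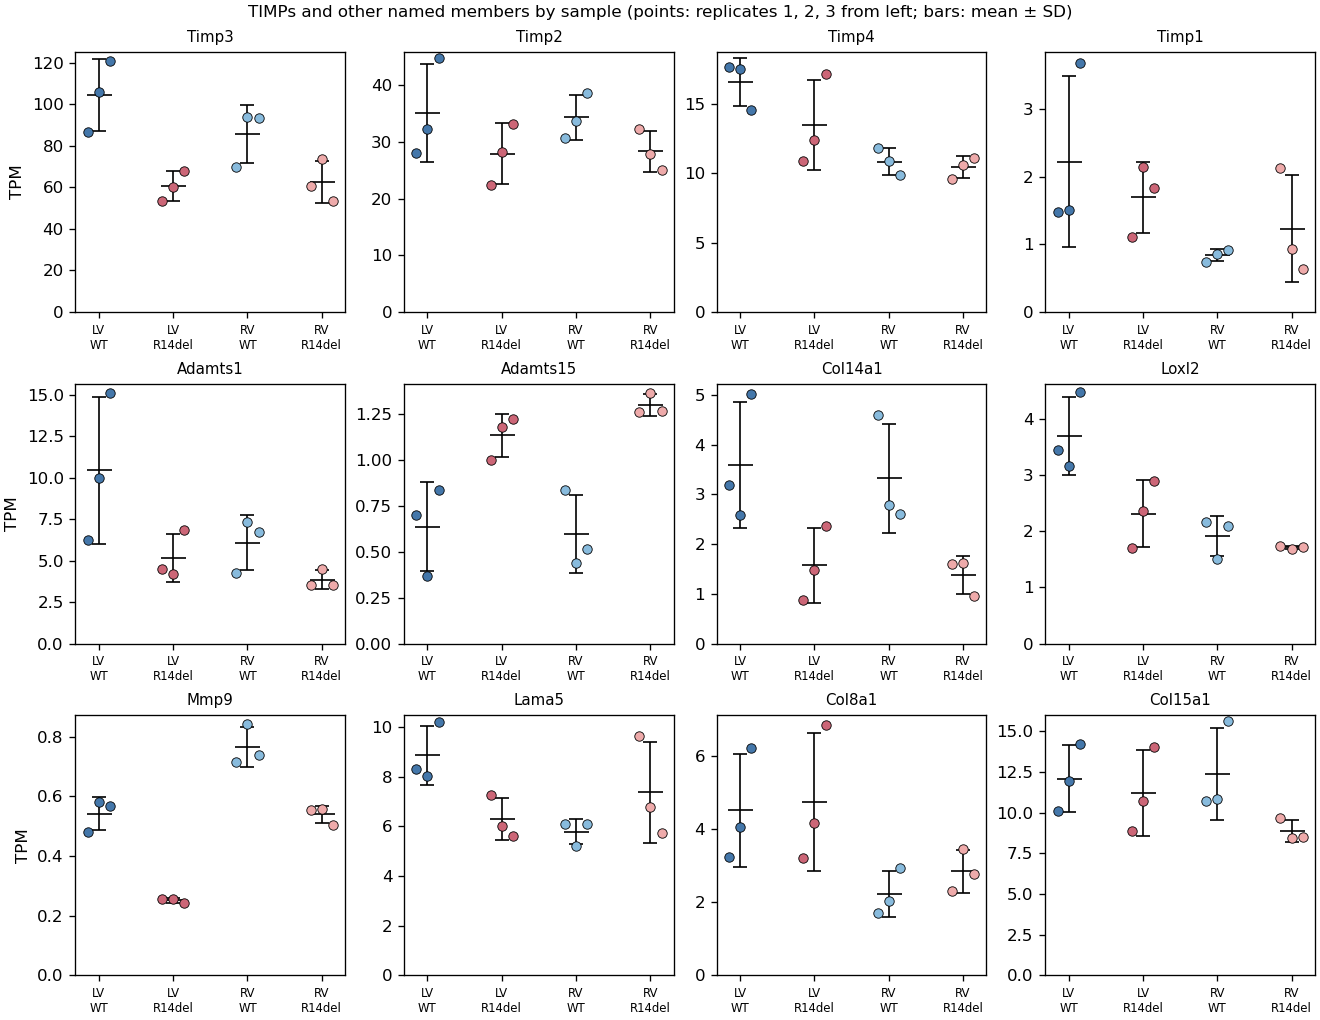
TPM (vertical axes, from 0) of the 4 TIMPs and 8 other members in the 4 groups; points are samples with replicates 1, 2 and 3 from the left, and bars are the mean ± SD. Timp3 in R14del-PLN LV lies at 53.7 to 68.1 TPM, below all 3 WT-PLN samples, and Adamts15 lies at 1.00 to 1.36 TPM in the 6 R14del-PLN samples and at 0.368 to 0.837 TPM in the 6 WT-PLN samples.

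Of the 8 ADAMTS members, Adamts1 and Adamts15 had the smallest p-values, with opposite signs. Adamts1, a protease that cuts the proteoglycans versican and aggrecan, stood at 6.26, 9.99 and 15.1 TPM in WT-PLN LV and at 4.52, 4.18 and 6.82 TPM in R14del-PLN LV. The WT-PLN samples were spread over a wide range, and replicate 1 lay below R14del-PLN replicate 3, so that the groups overlapped. The log2 difference was -0.84 ± 0.26 (limma, p = 0.00705, adjusted p = 0.266; exact permutation test, p = 0.2). It was called in 2 of 22 alternatives, at -1.13 without WT-PLN replicate 1 of the LV (limma, adjusted p = 0.0458) and at -1.13 without both WT-PLN samples numbered 1 (limma, adjusted p = 0.0210), with an adjusted p of up to 0.790 in the others. In the RV, Adamts1 was at 4.23, 7.32 and 6.72 TPM in WT-PLN and 3.55, 4.51 and 3.51 TPM in R14del-PLN samples, a difference of -0.53 ± 0.26 (limma, adjusted p = 0.855). Adamts1 and Adamts5 lie 53.1 kb apart on chromosome 16, and Adamts5, the aggrecanase, had differences of 0.08 in the LV and 0.05 in the RV.

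Adamts15, a related proteoglycan-cutting enzyme on chromosome 9 from 30899155 to 30922452, had positive differences in both ventricles. It stood at 0.702, 0.368 and 0.836 TPM in WT-PLN LV and at 0.837, 0.439 and 0.513 TPM in WT-PLN RV. In R14del-PLN hearts it was at 1.00, 1.18 and 1.22 TPM in the LV and at 1.26, 1.36 and 1.27 TPM in the RV. Neither ventricle showed an overlap between genotypes, although the level is near 1 TPM. The ratio of means was 2.17 in the RV and 1.78 in the LV, and the log2 differences were 0.53 ± 0.14 (limma, adjusted p = 0.182) and 0.39 ± 0.14 (limma, adjusted p = 0.319). The RV difference was not called in any of 21 alternatives, with an adjusted p of 0.0971 to 0.740. The 2 genotype comparisons have no samples in common, but they share the estimate of the spread, and same-numbered LV and RV samples of WT-PLN hearts deviated together over genes, so the ventricles may not be independent.

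Adamts10, which binds fibrillin microfibrils, and Adamts7, which cuts COMP, were the next most abundant after Adamts1. Adamts10 was at 4.89 ± 0.839 TPM in WT-PLN LV and 4.31 ± 0.506 TPM in R14del-PLN LV (SD, n = 3). Adamts7 had a difference of 0.24 ± 0.22 in the LV and 0.32 ± 0.22 in the RV (limma, adjusted p = 0.801 and 1), and it overlaps Tbc1d2b (2.64 TPM) on the other strand. Adamts2, Adamts3 and Adamts9 had LV differences of -0.28, -0.05 and -0.13, all within 2 standard errors of 0.

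Fibrillar collagens had a summed level of 67.6 ± 21.1 TPM in WT-PLN LV and 48.3 ± 12.8 TPM in R14del-PLN LV (SD, n = 3), and of 51.4 ± 12.8 and 46.0 ± 5.39 TPM in the RV. All 7 members were negative in both ventricles, against 71.7% of all genes in the LV and 50.9% in the RV. The medians were -0.35 in the LV and -0.15 in the RV, and none was called. In WT-PLN LV replicate 3 had the highest sum, at 92.0 TPM against 56.1 and 54.8 TPM, and replicate 3 was the highest for all 7 members in 3 of the 4 groups. The RV sums were 42.7, 45.4 and 66.1 TPM in WT-PLN and 50.6, 47.3 and 40.0 TPM in R14del-PLN samples. WT-PLN replicates 1 and 2 thus lay below R14del-PLN replicates 1 and 2 there.

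Col1a1, one of the 2 chains of type I collagen, stood at 7.29, 5.81 and 11.9 TPM in WT-PLN LV and at 4.29, 5.09 and 6.77 TPM in R14del-PLN LV. The groups overlapped, with a difference of -0.51 ± 0.21 (limma, adjusted p = 0.449). Its partner chain Col1a2 was at 18.4 ± 7.11 and 13.7 ± 3.30 TPM in these groups, and Col3a1, the type III chain, at 29.9 ± 8.20 and 21.2 ± 5.92 TPM (SD, n = 3 each), with differences of -0.37 ± 0.24 and -0.48 ± 0.25 (limma, adjusted p = 0.692 and 0.580). In the RV the differences of Col1a1, Col1a2 and Col3a1 were -0.21, -0.17 and -0.07. Gm47302 matches Col3a1 at 100% identity over 141 bases. Col5a3, a minor chain of type V collagen outside the naming rule, was the fibrillar member whose groups did not overlap in the LV, at 1.24, 1.29 and 1.29 TPM against 0.663, 0.665 and 1.03 TPM (limma, adjusted p = 0.309), nor in the RV, at 0.926, 0.890 and 1.12 TPM against 0.660, 0.873 and 0.565 TPM (limma, adjusted p = 0.904).

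Over all subfamilies, 9 members did not overlap between genotypes in the LV, 8 lower and 1 higher in R14del-PLN hearts, and 8.47% and 2.48% of all genes tested did so in these directions. In the RV 6 did not overlap, 5 lower and 1 higher, against 5.79% and 5.19% of all genes. Col5a3, Col14a1, Mmp9 and Adamts15 were in both counts.

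Col14a1, a fibril-associated collagen that binds the surface of type I fibrils, had the most negative log2 difference of all members in both ventricles, in the LV about level with Adamts1. It stood at 3.19, 2.58 and 5.01 TPM in WT-PLN LV and at 0.875, 1.48 and 2.36 TPM in R14del-PLN LV. In the RV it was at 4.59, 2.79 and 2.60 TPM in WT-PLN and 1.59, 1.62 and 0.948 TPM in R14del-PLN samples. Neither ventricle showed an overlap, and the ratios of means were 0.437 and 0.417. The log2 differences were -0.84 ± 0.25 in both ventricles (limma, adjusted p = 0.223 in the LV and 0.312 in the RV; exact permutation test, p = 0.1 in each). It was called in neither ventricle under any of 22 alternatives each, with adjusted p-values of 0.120 to 0.700 and 0.127 to 0.752. Col14a1 lies on chromosome 15 from 55307750 to 55520803. By ratio of means in the LV, Col4a6 (0.402) and Col18a1 (0.419) lay lower than Col14a1. The other fibril-associated collagens, Col16a1 and Col22a1, had LV differences of -0.15 and 0.08 and RV differences of 0.01 and 0.14.

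Basement membrane collagens summed to 108 ± 20.6 TPM in WT-PLN LV and 92.6 ± 27.1 TPM in R14del-PLN LV, and to 79.2 ± 9.41 and 79.8 ± 31.3 TPM in the RV (SD, n = 3). Col4a1 and Col4a2, the chains of the common type IV network, start head to head on chromosome 8 and were the most abundant collagens. Col4a1 was at 39.1, 56.5 and 52.0 TPM in WT-PLN LV and at 29.1, 36.2 and 33.7 TPM in WT-PLN RV, without overlap, and the difference of -0.55 ± 0.30 was not called (limma, adjusted p = 0.387). In R14del-PLN RV, replicate 2 was at 63.6 TPM for Col4a1, against 25.5 and 27.6 TPM in the others, and at 32.3 TPM for Col4a2, against 16.5 and 19.7 TPM. Atrial markers in that sample summed to 553 TPM, against 220 and 59.1 TPM in the others, and their part in the values was not tested.

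Col15a1, a collagen of the basement membrane zone of muscle and vessels, stood at 10.7, 10.8 and 15.6 TPM in WT-PLN RV and at 9.67, 8.46 and 8.53 TPM in R14del-PLN RV. These groups did not overlap, and the difference was -0.42 ± 0.18 (limma, adjusted p = 0.771). In the LV it was -0.11 ± 0.18. Col18a1, whose cleaved end is endostatin, stood at 1.66, 2.25 and 8.16 TPM in WT-PLN LV and at 1.34, 1.52 and 2.20 TPM in R14del-PLN LV. WT-PLN replicate 3 stood far above the other 5 samples, and the LV difference of -0.69 ± 0.35 was not called (limma, adjusted p = 0.571). In that sample the summed level of the atrial markers was 1344 TPM, against 225 and 329 TPM in the other WT-PLN samples of the LV, and its part in the value was not tested. The same markers summed to 907 TPM in WT-PLN replicate 2 of the RV, where Col18a1 was at 1.87 TPM. Col4a4, Col4a5 and Col4a6 had LV differences of -0.13, -0.08 and -0.42, none called.

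Laminins, the other backbone of the basement membrane, were the largest subfamily by level, and their sums overlapped between genotypes, with 170 ± 37.6 and 152 ± 34.8 TPM in the LV and of 158 ± 31.9 and 150 ± 34.0 TPM in the RV (SD, n = 3). Lamb2, Lama2 and Lamc1, which together encode the laminin of mature muscle, had LV differences of -0.15 ± 0.24, -0.21 ± 0.24 and -0.21 ± 0.21 and RV differences of -0.05, -0.27 and -0.14. Lamb2 had the second highest mean over the 12 samples among the members, at 73.6 ± 19.3 TPM in WT-PLN LV and 65.8 ± 14.5 TPM in R14del-PLN LV. In both R14del-PLN groups its mean lay above that of Timp3. Lamb1, Lama4 and Lamb3 had LV differences of -0.07, -0.07 and 0.17.

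Lama5, a chain of laminins in vessels and epithelia, had the smallest interaction p among the members. It stood at 8.31, 8.04 and 10.2 TPM in WT-PLN LV and at 7.25, 6.01 and 5.62 TPM in R14del-PLN LV, with no overlap. In the RV it stood at 6.07, 5.19 and 6.10 TPM in WT-PLN and 9.64, 6.78 and 5.71 TPM in R14del-PLN samples, where replicate 1 of the mutant was the highest. The genotype difference was -0.43 ± 0.17 in the LV and 0.28 ± 0.17 in the RV, and the interaction was 0.71 ± 0.24 (limma, adjusted p = 1.00). Within WT-PLN hearts the RV differed from the LV by -0.53 ± 0.17 on the log2 scale (limma, adjusted p = 0.253). This difference, the LV genotype difference and the interaction share the WT-PLN LV samples and are not independent.

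Network and beaded collagens included Col6a1, Col6a2 and Col6a3, the chains of type VI collagen that links cells to fibres. Col6a2 was at 14.6, 14.3 and 18.4 TPM in WT-PLN LV and at 9.79, 10.1 and 15.7 TPM in R14del-PLN LV. Col6a1 was at 12.6, 13.5 and 16.3 TPM and at 7.78, 9.99 and 14.4 TPM in these groups. Both overlapped through R14del-PLN replicate 3, and the differences were -0.41 ± 0.17 and -0.40 ± 0.18 (limma, adjusted p = 0.446 and 0.517). In the RV the differences were -0.21 ± 0.17 and -0.34 ± 0.18, and the groups of Col6a1 did not overlap there. Col6a3 and Col6a6 had LV differences of -0.27 and 0.07.

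Col8a1, a short-chain collagen of vessel walls and the subendothelium, had a negative difference between the RV and LV in both genotypes, called in neither. In WT-PLN hearts it was at 3.25, 4.06 and 6.22 TPM in the LV and at 1.71, 2.03 and 2.92 TPM in the RV, with no overlap, a ratio of means of 0.492 and a log2 difference of -0.76 ± 0.24 (limma, adjusted p = 0.255). In R14del-PLN hearts it was at 3.21, 4.17 and 6.84 TPM in the LV and at 2.30, 3.46 and 2.77 TPM in the RV, and the difference was -0.54 ± 0.24 (limma, adjusted p = 0.751). Between genotypes its differences were 0.05 in the LV and 0.26 in the RV. Col23a1, the single membrane collagen, was at 0.436 ± 0.0357 TPM in R14del-PLN LV and 0.709 ± 0.126 TPM in R14del-PLN RV (SD, n = 3), where the groups did not overlap (limma, adjusted p = 0.839).

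MMPs summed to 53.3 ± 8.63 TPM in WT-PLN LV, 47.7 ± 8.30 TPM in R14del-PLN LV, 48.0 ± 5.35 TPM in WT-PLN RV and 44.9 ± 5.02 TPM in R14del-PLN RV (SD, n = 3). Mmp15, a membrane-bound MMP, and Mmp2, the gelatinase made by fibroblasts, were the most abundant. Mmp15 was at 20.2 ± 2.37 and 21.1 ± 1.72 TPM in WT-PLN and R14del-PLN LV, and Mmp2 at 20.1 ± 3.66 and 16.7 ± 4.57 TPM. Mmp23, another membrane-anchored enzyme, had an LV difference of -0.33 ± 0.21, and Mmp11, Mmp14 and Mmp19 had LV differences of -0.15, -0.10 and -0.30, none called. Mmp11 shares exon sequence with Chchd10, and Mmp19 with Tmem198b and Gm47093, on the other strand, and the use of strand is not known.

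Mmp9, the gelatinase known from neutrophils and macrophages, was scarce but tight among replicates. It stood at 0.480, 0.580 and 0.566 TPM in WT-PLN LV and at 0.256, 0.255 and 0.242 TPM in R14del-PLN LV. In the RV it was at 0.716, 0.841 and 0.737 TPM in WT-PLN and 0.555, 0.557 and 0.505 TPM in R14del-PLN samples. No genotype or ventricle comparison of Mmp9 showed an overlap. The ratio of means was 0.463 in the LV and 0.705 in the RV between genotypes, while the log2 differences were -0.30 ± 0.10 (limma, adjusted p = 0.282) and -0.20 ± 0.10 (limma, adjusted p = 0.846). The RV lay above the LV by 0.19 ± 0.10 in WT-PLN (limma, adjusted p = 0.365) and by 0.30 ± 0.10 in R14del-PLN hearts (limma, adjusted p = 0.711). Adding 0.1 TPM instead of 1 TPM before the logarithm gave an LV genotype difference of -0.87 (limma, adjusted p = 0.234). Depth is unknown, so the counting error of such low values could not be given. Mmp28, an MMP of epithelia and macrophages, did not overlap in the LV either, at 1.02, 0.972 and 0.757 TPM against 0.394, 0.547 and 0.588 TPM (limma, adjusted p = 0.318). It shares exon sequence with 1700020L24Rik on the other strand, which had a mean of 0.719 TPM, against 0.697 TPM for Mmp28.

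Lysyl oxidases summed to 10.8 ± 2.18 TPM in WT-PLN LV and 7.07 ± 0.452 TPM in WT-PLN RV, and to 8.17 ± 1.61 TPM in R14del-PLN LV and 6.96 ± 0.487 TPM in R14del-PLN RV (SD, n = 3). Loxl2, which cross-links collagen and is known from fibrotic heart, was at 3.45, 3.16 and 4.48 TPM in WT-PLN LV and at 2.16, 1.51 and 2.09 TPM in WT-PLN RV. In R14del-PLN hearts it was at 1.71, 2.35 and 2.89 TPM in the LV and at 1.74, 1.69 and 1.73 TPM in the RV. The LV of WT-PLN hearts lay above all 9 other samples. The difference between the RV and LV of WT-PLN hearts was -0.68 ± 0.16 (limma, adjusted p = 0.201), and that between genotypes in the LV was -0.51 ± 0.16 (limma, adjusted p = 0.256). Gm21451 matches Loxl2 at 100% identity over 2348 bases and was at 0.303 TPM, so that reads may have been split and the Loxl2 values are uncertain.

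Loxl1, the family member tied to elastic fibres, was at 5.20 ± 0.973 TPM in WT-PLN LV and 3.70 ± 0.103 TPM in WT-PLN RV, without overlap (limma, adjusted p = 0.291). Lox, the founding enzyme, and Loxl3 had LV genotype differences of -0.20 ± 0.13 and -0.26 ± 0.17, and Loxl3 shares exon sequence with Htra2 (12.2 TPM) on the other strand.

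Between the ventricles of WT-PLN hearts, 45 of 55 members were lower in the RV and 10 higher, against 85.9% and 14.1% of all genes, with a median of -0.22 against -0.17. In R14del-PLN hearts 33 of 55 were lower, against 70.3% of all genes, with a median of -0.07 against -0.08, and 22 were higher, against 29.6%. In WT-PLN hearts 12 members did not overlap, 11 lower and 1 higher in the RV, against 25.2% and 0.974% of all genes. In R14del-PLN hearts Mmp9, Adamts15 and Col23a1 did not overlap, all higher in the RV, where 1.26% of all genes did so, while no member and 8.72% of all genes lay apart in the other direction. The 2 comparisons have no samples in common, but each shares its LV samples with the genotype comparison in the LV and its RV samples with that in the RV. The WT-PLN median was -0.05 without WT-PLN replicate 3 of the LV, with 34 members lower and a median of -0.10 over all genes, and -0.05 after quantile normalization, with 33 lower. It was -0.15 without WT-PLN replicate 1 of the RV and -0.32 without WT-PLN replicate 1 of the LV. The R14del-PLN median was -0.19 without R14del-PLN replicate 1 of the LV and -0.01 without R14del-PLN replicate 3 of the RV. It came to 0.04 without mitochondrially encoded genes and to 0.08 without R14del-PLN replicate 3 of the LV. With the replicate number within each genotype as a block, which pairs same-numbered LV and RV samples, limma called 12 genes in WT-PLN hearts. None of them was a member, and 13 members had p under 0.05, against 15.5% of all genes.

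**Figure D4:**
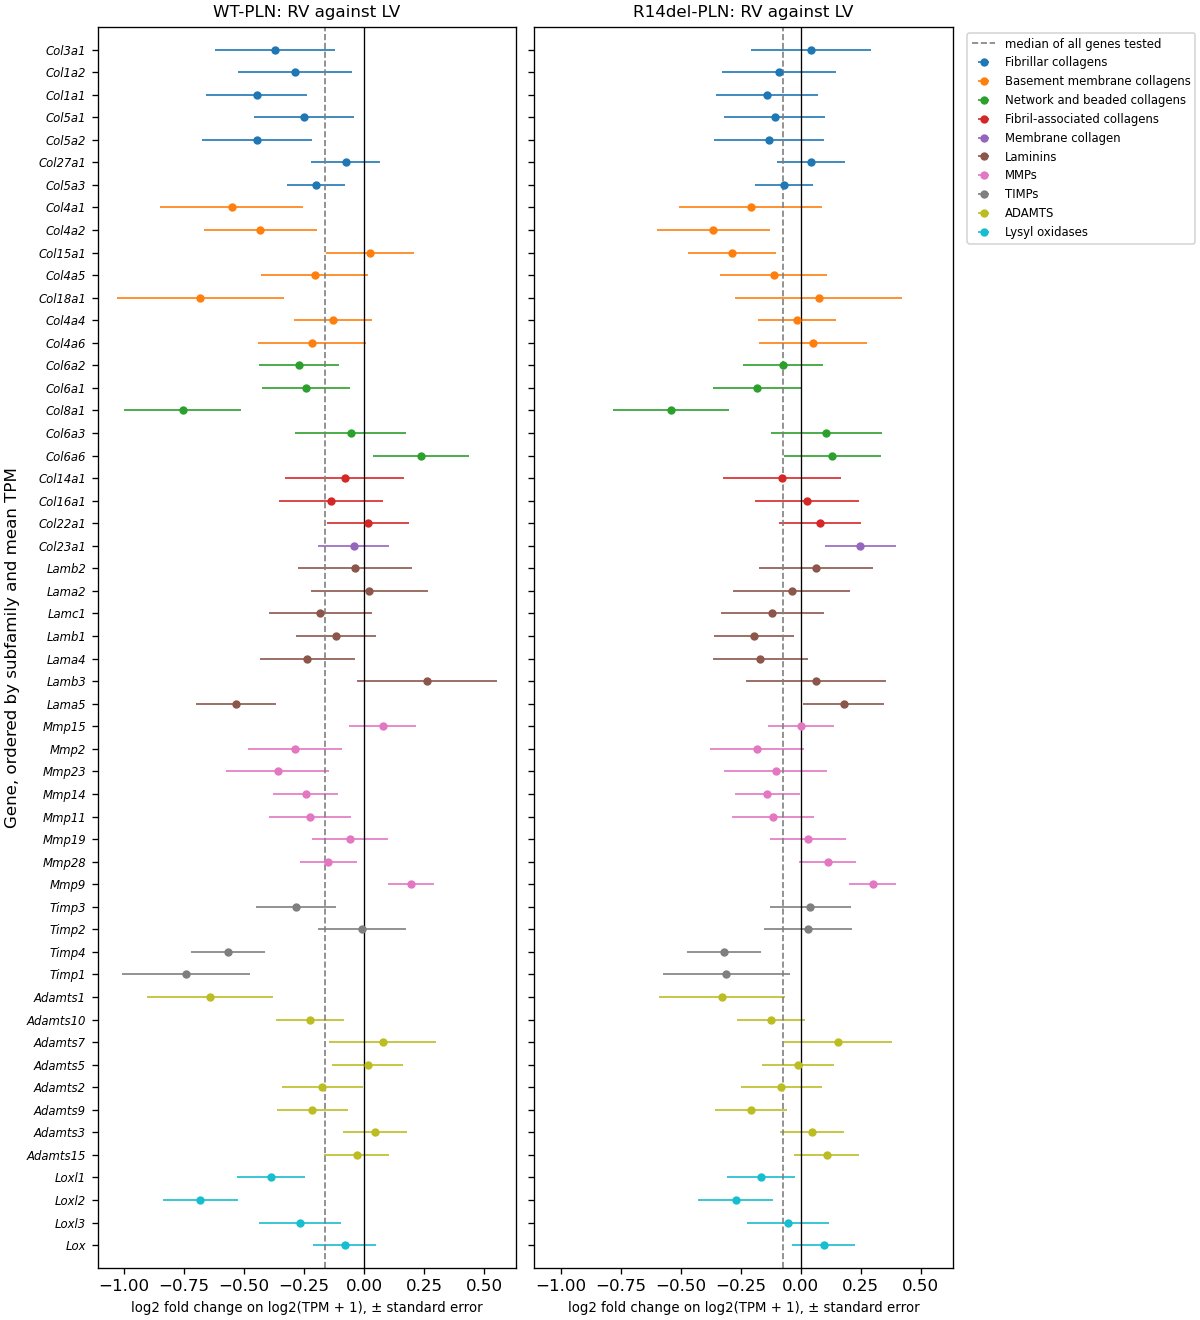
Log2 fold change of each of 54 of the 55 members (vertical axis, ordered by subfamily and mean TPM) between the RV and LV on log2(TPM + 1), ± standard error, in WT-PLN (left) and R14del-PLN hearts (right); the dashed line is the median of all genes tested. In WT-PLN hearts 44 of 54 points lie below 0, with Col8a1, Timp1, Col18a1 and Loxl2 farthest, and in R14del-PLN hearts 32 of 54 do.

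Ratios between related collagen or laminin chains do not depend on the scaling of a sample. Col1a1 to Col1a2 was 0.460 ± 0.103 in WT-PLN LV and 0.394 ± 0.0270 in R14del-PLN LV, Col6a1 to Col6a2 was 0.897 ± 0.0423 and 0.900 ± 0.0984, and Col4a1 to Col4a2 was 1.45 ± 0.0947 and 1.45 ± 0.0979 (SD, n = 3). Lama4 to Lama2, alternative alpha chains of vessel and muscle laminins, was 0.477 ± 0.00636 in WT-PLN LV, 0.527 ± 0.0553 in R14del-PLN LV, 0.393 ± 0.0396 in WT-PLN RV and 0.475 ± 0.0263 in R14del-PLN RV. Of 24 tests over 6 ratios and 4 comparisons, 3 reached the smallest p of 0.1 in the exact permutation test, and the smallest adjusted p was 0.8.

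Genes that act with the members were counted in lists. Among 21 genes of collagen synthesis and folding, 6 had p under 0.05 in the LV, all lower in R14del-PLN hearts, and none was called, where 7.85% of all genes were lower at that p and 0.519% were called. Of 23 glycoproteins of fibres and microfibrils, 8 were lower at that p in the LV and 1 was called, and of 10 proteoglycans 5 were lower and none called, with list medians of -0.40 and -0.47 against -0.09 over all genes. Of 12 basement membrane partners, none had p under 0.05 in the LV, and of 22 receptors 1 was higher and 1 lower. In the RV, at that p, 2 of the 21 synthesis genes and 4 of the 23 glycoproteins were lower, against 3.40% of all genes, and none of the proteoglycans, basement membrane partners or receptors was in either direction. The called glycoprotein was Eln, elastin, at 5.44, 5.32 and 9.34 TPM in WT-PLN LV and at 2.10, 2.29 and 3.43 TPM in R14del-PLN LV (limma, -1.07 ± 0.20, adjusted p = 0.0315). The call was lost in 7 of 22 alternatives, with an adjusted p of 0.126 with no filter, 0.0704 with the 6 LV samples alone, and 0.0679, 0.106, 0.162, 0.153 and 0.0511 without WT-PLN replicate 2 or 3 of the LV, R14del-PLN replicate 1 or 2 of the LV, or R14del-PLN replicate 3 of the RV.

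Markers of other cell types were summed beside these values. The 12 fibroblast markers summed to 748 ± 161 TPM in WT-PLN LV and 593 ± 133 TPM in R14del-PLN LV, with ranges of 574 to 890 and 462 to 728 TPM, and to 711 ± 84.4 and 567 ± 132 TPM in the RV (SD, n = 3). In both ventricles 11 of 12 had a negative difference, against 71.7% of all genes in the LV and 50.9% in the RV. The medians were -0.24 in the LV and -0.16 in the RV. At an unadjusted p under 0.05, none was lower in the LV and 2 were in the RV, against 7.85% and 3.40% of all genes. The 3 epicardial markers tested (Msln, Upk3b and Wt1) were lower in R14del-PLN RV at an unadjusted p under 0.05, as were 3.40% of all genes. Their list of 7 summed to 6.94 ± 2.81 TPM in WT-PLN RV and 2.39 ± 1.84 TPM in R14del-PLN RV, with 1 overlapping pair of samples. Endothelial markers summed to 708 ± 29.2 and 727 ± 121 TPM in the LV and to 529 ± 23.0 and 602 ± 76.6 TPM in the RV. Between the RV and LV of WT-PLN hearts all 12 endothelial markers were lower in the RV, against 85.9% of all genes, and 9 of them at that p, against 13.8%. WT-PLN replicate 3 of the LV had the highest sum of its group for the fibroblast, macrophage and cardiomyocyte lists. It also did so for the atrial, activated fibroblast, and pericyte and smooth muscle lists, and was highest for 73.5% of all genes tested. Atrial markers summed to 633 ± 618 TPM in WT-PLN LV and 253 ± 88.6 TPM in R14del-PLN LV, with replicate 3 of WT-PLN LV at 1344 TPM, 9 of 9 tested negative, against 71.7% of all genes, and a median of -1.46. Activated fibroblast markers summed to 90.2 ± 73.6 TPM and 54.1 ± 16.3 TPM in these groups, with WT-PLN replicate 3 at 175 TPM against 50.9 and 44.7 TPM. Of 6 tested, 5 were negative in the LV, against 71.7% of all genes, with a median of -0.37. In the RV 5 of the 6 were positive, against 49.0% of all genes, with a median of 0.10. Pericyte and smooth muscle markers summed to 331 ± 139 TPM in WT-PLN LV and 264 ± 62.0 TPM in R14del-PLN LV, with replicate 3 of WT-PLN LV at 488 TPM. Of 10 tested, 7 were negative in the LV and 8 positive in the RV, with medians of -0.07 and 0.16. In the RV, atrial markers summed to 378 ± 459 TPM in WT-PLN and 277 ± 252 TPM in R14del-PLN hearts. Replicate 2 was the highest in both RV groups, at 907 and 553 TPM, and 4 of 9 tested were negative, against 50.9% of all genes. The part of these cells in the differences of the members was not tested.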

How the data were processed

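PolyA stranded RNA libraries were sequenced from 12 samples, 3 in each of 4 groups that the sample titles give. Reads were mapped by the authors to GRCm38 with CLC Genomics Workbench 20.0.2. The deposited values are in TPM, scaled by the authors per gene length so that each sample sums to 1000000. The program behind them and their use of strand are not given in the sources used here.

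Members and gene lists were chosen with earlier results of these data known. Genes averaging 0.5 TPM or more (12526) were fitted on log2(TPM + 1) by limma (version 3.58.1, R version 4.3.3) as 4 group means, with 8 residual and 5.15 prior degrees of freedom, an intensity trend and Benjamini-Hochberg adjustment over all of them. Samples were treated as independent. Same-numbered LV and RV samples of WT-PLN hearts deviated together (correlations of 0.657, 0.321 and 0.457 over genes), and those of R14del-PLN hearts did not all do so (0.389, 0.230 and 0.0542), nor did same-numbered samples of the 2 genotypes (-0.0209, 0.156 and 0.0919 in the LV and 0.061, 0.219 and 0.133 in the RV).

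Members were named when among the 3 most abundant of a subfamily, TIMPs or lysyl oxidases, or among the 5 smallest p-values of a comparison, which gave 35. All other genes were named after their values were seen. The lists for activated fibroblasts, pericytes and smooth muscle, macrophages, Schwann cells and cardiomyocytes had 1, 0, 1, 1 and 0 members at an unadjusted p under 0.05 in the LV, and 0, 0, 1, 0 and 0 in the RV, with none called. They held 6, 10, 9, 3 and 10 tested genes. Endothelial, epicardial and atrial lists (12, 3 and 9 tested genes) had 3, 1 and 3 in the LV and 1, 3 and 0 in the RV, none called. Except for 1 endothelial gene in each ventricle, all of these were lower in R14del-PLN hearts. Over all genes, 9.60% in the LV and 6.22% in the RV had such a p in either direction. Alternatives were pseudocounts of 0.5 and 0.1, a filter at a mean of 1 TPM and no filter, quantile normalization, removal of mitochondrially encoded genes, no intensity trend, a replicate block, the 6 samples compared alone, and leaving out samples. The block was the replicate number for genotype comparisons. For ventricle comparisons and the interaction it was the number within each genotype. Near-identical copies were sought with BLAST 2.17.0 (95% identity over 80% of the shorter transcript), and positions are from GENCODE. Python 3.11.15 with pandas 2.3.3 was used for the rest. Some results are not reported here, and 1 member is counted but neither named nor drawn.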

Additional observations from a re-analysis of the deposited data

How the results depend on the processing

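The count of members called in the RV, between ventricles and for the interaction was 0 under all alternatives run. In the LV it was 1 (Timp3) after quantile normalization, without mitochondrially encoded genes and with the replicate block, and 2 (Timp3 and Adamts1) with both WT-PLN samples numbered 1 left out; leaving out 1 sample at a time gave 0 to 2. The block was fitted although the numbers pair no samples across genotypes, and it changed no other call of a member. It brought the genes called over all 12526 to 119 in the LV and 62 in the RV, against 65 and 34. Over all genes, the highest counts came without both WT-PLN samples numbered 1 (231 in the LV and 88 in the RV) and the lowest without R14del-PLN replicate 1 of the LV (19) and WT-PLN replicate 2 of the RV (14); with no filter they were 22 and 17, and after quantile normalization 101 and 85. The log2 ratio of the summed MMPs between the RV and LV of WT-PLN hearts went from -0.15 to 0.057 under quantile normalization, and that of the lysyl oxidases from -0.62 to -0.38; the cause was not tested. The other 86 ratios of sums over both scalings moved by less than the spread between samples, but 12 of the 44 ratios turned direction under at least 1 of them, 11 of the 12 between ventricles. All members in R14del-PLN hearts went from -0.08 to 0.04 under quantile normalization and 0.10 without mitochondrially encoded genes, and laminins in WT-PLN hearts from -0.10 to 0.10 and 0.04. None of the 28 gene differences followed changed sign under any alternative. TPM holds no depth, so no limit of detection could be given, and 3 samples a group cannot give an exact p below 0.1.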
